A study of Mus musculus with 12 samples.

Results

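The 10 genes described here encode subunits of the transcription factor AP-1 or products of related immediate early genes. They are Fos, Fosb, Fosl1 and Fosl2 of the Fos family, Jun, Junb and Jund of the Jun family, and Egr1, Atf3 and Ier3. They were picked by symbol from a deposited table of read counts for 21232 genes. All 10 were found, and all 10 were among the 12736 genes that passed the filter on low counts. RNA was sequenced from C2C12 cells, an established line of mouse myoblasts that leaves the cell cycle and forms myotubes when serum is lowered, at passages 5 to 10 (the strain is entered as C57BL/6). There were 4 groups of 3 libraries, lettered A, B and C. TNF cells had been differentiated for 48 h in the presence of the inflammatory cytokine TNF at 10 ng/ml. Fbxl2 siRNA cells were taken at 48 h of differentiation after silencing of Fbxl2, which encodes an F-box protein of an ubiquitin ligase. Control cells had been differentiated for 48 h, and proliferating cells were myoblasts at 0 h. Growth medium held 10% fetal bovine serum and differentiation medium 2% horse serum. A non-targeting siRNA is mentioned for neither the control nor the TNF cells, so silencing of Fbxl2 and delivery of an siRNA cannot be told apart. All groups are a single cell line, and no separate cultures are named behind the letters. The p-values therefore rest on the spread among the 12 libraries alone, and part of it may be technical.

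AP-1 is a dimer of basic leucine zipper proteins, in which a Jun protein pairs with a Fos protein, an ATF protein or another Jun protein and binds DNA at TGACTCA or related sites. Fos, Egr1 and other immediate early genes are switched on within minutes of serum, growth factor or cytokine addition, through serum response factor, ternary complex factors and MAP kinases, and their RNA is short-lived. Fosl1, Fosl2 and Jund RNA persists longer in many cells, and AP-1 is known in myoblasts for its link to growth and for antagonism between Jun and the myogenic factor MyoD.

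Library totals ran from 26416978 to 32917763 counts, and a floor of 3 counts stood at 0.0899 to 0.113 CPM, a count scaled to the size of its library and by TMM, the trimmed mean of M values. Fbxl2 itself stood at 22.2 ± 1.52 CPM in Fbxl2 siRNA cells and 32.9 ± 1.30 CPM in control cells (SD, n = 3 each), 67.5% of control with a log2 fold change of -0.57 (edgeR, adjusted p = 1.67e-07). Fbxl2 averaged 28.9 CPM in TNF cells (log2 fold change over control -0.19, edgeR adjusted p = 0.0137) and 26.0 CPM in proliferating cells. Fbxl2 siRNA cells were 1.17-fold below proliferating cells (edgeR adjusted p = 0.0055). Summed CPM of 6 myogenic markers (Myod1, Myf5, Myog, Des, Cdh15 and Myh3) ranged from 1220 to 1253 in TNF cells, 1939 to 2194 in Fbxl2 siRNA cells, 2691 to 2935 in control cells and 1422 to 1570 in proliferating cells. By edgeR at an adjusted p under 0.05, all 6 were lower in TNF than in control cells, against 23.6% of all genes lower. Between Fbxl2 siRNA and control cells 1 was higher and 4 were lower, against 34.1% and 29.8% of all genes. Between control and proliferating cells 5 were higher and 1 was lower, against 38.4% and 38.9% of all genes. Between TNF and proliferating cells 2 were higher, Myog and Myh3, and 4 were lower, against 36.3% and 36.5% of all genes. Myog averaged 79.9 CPM in TNF and 22.5 in proliferating cells, and Myh3 153 and 6.32 CPM. Des was the largest part of the sum, with 727 CPM in TNF, 1276 in Fbxl2 siRNA, 1201 in control and 1095 in proliferating cells. The 4 macrophage markers summed to 1.91 to 2.13 CPM in TNF, 1.44 to 1.56 in Fbxl2 siRNA, 1.89 to 2.77 in control and 1.32 to 1.447 in proliferating cells: Adgre1 had 0 counts in every library and Ptprc 0 to 2, and Cd68 and Csf1r made up the sum. Cd68 averaged 0.867 CPM in TNF and 1.58 in control cells, and Csf1r 1.12 in TNF and 0.694 in control cells. By edgeR, 0 of these 2 were called higher and 1 lower in TNF than in control cells, against 31.0% and 23.6% of all genes. The endothelial markers Pecam1, Cdh5 and Kdr summed to at most 0.409 CPM. The 4 fibroblast markers summed to 2061 to 2167 CPM in TNF, 1562 to 1677 in Fbxl2 siRNA, 2274 to 2341 in control and 461 to 612 in proliferating cells. Of these, Thy1 had 0 counts in 11 libraries and 1 in the other, while the matrix genes Col1a1 and Dcn and the receptor gene Pdgfra were expressed in every library. Dcn averaged 119 CPM in TNF, 394 in Fbxl2 siRNA, 488 in control and 29.3 in proliferating cells. In the same order, Col1a1 averaged 1971, 1215, 1813 and 494 CPM, and Pdgfra 32.4, 16.9, 15.8 and 14.6 CPM. By edgeR, of the 3 tested, 1 was higher and 1 lower in TNF than in control cells, against 31.0% and 23.6% of all genes. With Fbxl2 siRNA 0 were higher and 2 lower than in control cells, against 34.1% and 29.8%. From proliferating to control cells 2 were higher and 0 lower, against 38.4% and 38.9%. The myogenic and fibroblast markers, and Cd68 and Csf1r at a low level, differed among the groups in which the AP-1 genes are compared below. Within a list they did not all move in the same direction in every comparison. The part of these markers in the differences of the AP-1 genes was not tested. In bulk RNA, fewer cells of a type and less RNA per cell cannot be told apart.

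Upstream sequence is given for 4 members as examples. Fos was lower in both TNF and Fbxl2 siRNA cells than in control cells. Fosl2, Ier3 and Junb were higher in TNF cells and lower in Fbxl2 siRNA cells. Other members also differed among the groups and are not shown, such as Atf3, whose groups did not overlap. Each run holds the 250 bases before the transcription start in RefSeq (GRCm38.p6), 5′ to 3′ on the gene's strand, with matches to the kB site of NF-kB on either strand in capitals.
Fos (chr12:85473640-85473889, plus strand): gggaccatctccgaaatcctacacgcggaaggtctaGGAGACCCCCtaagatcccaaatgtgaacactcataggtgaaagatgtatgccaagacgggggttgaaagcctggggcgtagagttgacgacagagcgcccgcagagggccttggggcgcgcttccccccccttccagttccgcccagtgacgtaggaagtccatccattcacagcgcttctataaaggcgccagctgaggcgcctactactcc
Fosl2 (chr5:32136222-32136471, plus strand): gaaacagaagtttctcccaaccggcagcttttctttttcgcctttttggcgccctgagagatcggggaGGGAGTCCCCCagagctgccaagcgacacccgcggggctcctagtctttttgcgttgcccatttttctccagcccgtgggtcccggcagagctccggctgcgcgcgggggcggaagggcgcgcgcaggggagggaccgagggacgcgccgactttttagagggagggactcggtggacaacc
Ier3 (chr17:35821463-35821712, plus strand): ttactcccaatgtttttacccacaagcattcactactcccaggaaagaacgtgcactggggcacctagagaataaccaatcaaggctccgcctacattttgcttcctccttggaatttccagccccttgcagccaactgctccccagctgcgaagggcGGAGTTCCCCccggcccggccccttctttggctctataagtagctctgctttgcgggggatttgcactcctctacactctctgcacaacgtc
Junb (chr8:84978749-84978998, minus strand): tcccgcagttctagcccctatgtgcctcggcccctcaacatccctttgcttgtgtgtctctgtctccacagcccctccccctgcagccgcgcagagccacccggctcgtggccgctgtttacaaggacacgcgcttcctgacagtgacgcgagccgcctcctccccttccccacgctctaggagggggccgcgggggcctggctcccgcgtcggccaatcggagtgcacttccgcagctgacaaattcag

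RefSeq windows from 250 bases before to 50 after the start were matched for 8 of the 10 members, all but Fosl1 and Egr1, and each motif was searched on both strands. The kB site was in 4 of the 8 windows, those of Fos, Fosb, Fosl2 and Ier3, and in 4.51% of all 32851 windows of that length. In Fos it began 214 bases before the start, in Fosb 188, in Fosl2 182 and 181 (overlapping matches) and in Ier3 92. The Junb window had no match. GGGCGG, the core of the site bound by SP1, was in 6 of the 8 windows (those of Fos, Fosb, Fosl2, Jun, Atf3 and Ier3) and in 35.7% of all windows, and in Ier3 it overlapped the kB match. The AP-1 site TGACTCA, the related TGACGTCA and the CArG box of serum response factor were in 0 of the 8 windows, against 5.20%, 1.79% and 1.63% of all windows. Sites more than 250 bases before the start lay outside the windows and were not searched. TGACTCA and TGACGTCA were searched as exact strings, so variants such as TGACATCA, which the Jun window holds, were not counted. The lack of a match thus covers the windows and the motifs as searched only. A match is a string of letters and not evidence of binding. The Fosl2, Atf3 and Jund windows start elsewhere than the GENCODE M21 gene, so other promoters of these genes were not searched.

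**Figure D1:**
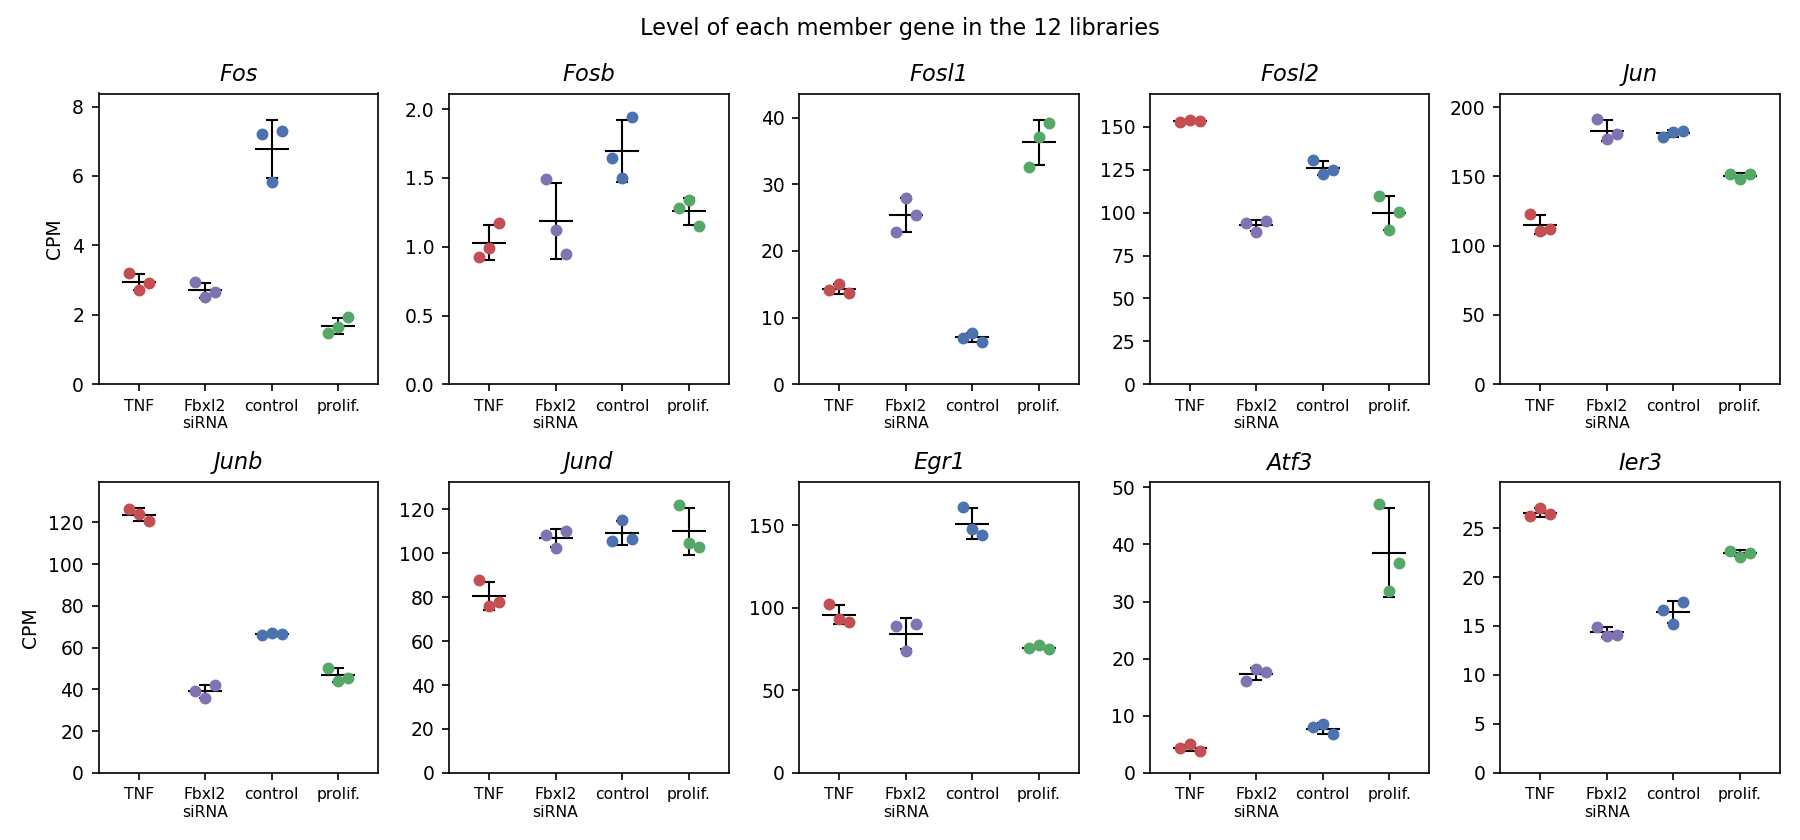
Level of each of the 10 genes in CPM (TMM-scaled, linear axis from 0 in each panel) in TNF, Fbxl2 siRNA, control and proliferating cells. Points are the 3 libraries of a group, and bars are the mean with the SD. Fos and Egr1 peak in control cells, Junb, Fosl2 and Ier3 in TNF cells, and Fosl1 and Atf3 in proliferating cells.

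Gene positions below are those of GENCODE M21 on GRCm38. Among the Fos family, Fos RNA was highest in control cells and Fosl1 RNA was lowest there. Fos (chr12:85473890-85477273), the founding member, was at 3.20, 2.72 and 2.91 CPM in TNF libraries A, B and C and at 2.95, 2.52 and 2.65 CPM in Fbxl2 siRNA libraries. It was at 7.22, 5.82 and 7.30 CPM in control libraries and at 1.48, 1.64 and 1.94 CPM in proliferating libraries. Every control library exceeded every library of the other groups, TNF and Fbxl2 siRNA libraries overlapped, and proliferating libraries were below all others. Against control cells, Fos was 2.30-fold lower with TNF (log2 fold change -1.20, SE 0.13, edgeR adjusted p = 7.14e-08) and 2.51-fold lower with Fbxl2 siRNA (-1.33, SE 0.13, adjusted p = 1.96e-08). In control cells it was 4.01-fold higher than in proliferating cells (log2 fold change 2.01, SE 0.14, adjusted p = 3.74e-11). TNF and Fbxl2 siRNA cells were not separated for Fos: the log2 difference was 0.13 with a 95% interval of -0.18 to 0.43 (edgeR adjusted p = 0.472).

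Fosb (chr7:19302696-19310051), a close relative of Fos, was the member with the lowest level per kb of exon, with 0.928, 0.993 and 1.17 CPM in TNF libraries and 1.49, 1.12 and 0.946 CPM in Fbxl2 siRNA libraries. Control libraries held 1.65, 1.498 and 1.94 CPM and proliferating libraries 1.28, 1.34 and 1.15 CPM. The control libraries were above all others, and the remaining groups overlapped. Fosb was 1.64-fold lower in TNF than in control cells (log2 fold change -0.72, SE 0.20, edgeR adjusted p = 0.00452). Its call in Fbxl2 siRNA against control cells (log2 fold change -0.51, adjusted p = 0.0289) was lost in 7 of 20 alternatives, among them DESeq2 (0.0845) and leaving out control A or C or siRNA B or C (0.0521 to 0.136). Its call in control against proliferating cells (log2 fold change 0.43, adjusted p = 0.0477) was lost in 15 of 20, with adjusted p from 0.0377 to 0.335 over all of them.

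Fosl1 (chr19:5447547-5455946), which encodes Fra-1, a Fos protein without the strong activation domain of Fos, ran opposite to Fos in its order of levels. TNF libraries had 14.2, 15.1 and 13.7 CPM, Fbxl2 siRNA libraries 22.9, 27.9 and 25.3 CPM, control libraries 6.98, 7.70 and 6.40 CPM, and proliferating libraries 32.6, 37.1 and 39.2 CPM. No pair of groups overlapped, in the order proliferating, Fbxl2 siRNA, TNF and control. Fosl1 was 2.04-fold higher in TNF than in control cells (log2 fold change 1.03, SE 0.10, edgeR adjusted p = 1.59e-08) and 3.61-fold higher in Fbxl2 siRNA than in control cells (1.85, SE 0.09, adjusted p = 8.67e-13). It was 5.16-fold lower in control than in proliferating cells (log2 fold change -2.37, SE 0.09, adjusted p = 2.12e-15). Fbxl2 siRNA cells stayed 1.43-fold below proliferating cells (log2 fold change -0.51, adjusted p = 7.43e-06). Exons of the opposite-strand gene Ccdc85b cover 57.2% of the Fosl1 exon length, and whether counting used strand is not given. Ccdc85b averaged 8.004 CPM in TNF, 8.08 in Fbxl2 siRNA, 6.26 in control and 6.85 in proliferating cells, and it was called higher in TNF and Fbxl2 siRNA cells than in control cells (log2 fold changes 0.36 and 0.37), so reads shared with it could enter the Fosl1 counts.

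Fosl2 (chr5:32135801-32157842), which encodes Fra-2, moved in opposite directions in the TNF and Fbxl2 siRNA cells. It had 152.7, 154.1 and 153.4 CPM in TNF libraries, 93.9, 88.8 and 95.02 CPM in Fbxl2 siRNA libraries, 131, 123 and 125 CPM in control libraries and 110, 89.9 and 100.5 CPM in proliferating libraries. TNF libraries were above all others, control libraries came next, and Fbxl2 siRNA and proliferating libraries overlapped. Fosl2 was 1.22-fold higher with TNF than in control cells (log2 fold change 0.28, SE 0.06, edgeR adjusted p = 0.000204) and 1.36-fold lower with Fbxl2 siRNA (-0.45, SE 0.06, adjusted p = 8.34e-07). TNF against Fbxl2 siRNA cells gave a log2 difference of 0.73 (adjusted p = 5.38e-10). The log2 difference between Fbxl2 siRNA and proliferating cells was -0.11, with a 95% interval of -0.23 to 0.01 (edgeR adjusted p = 0.0909), and it was called without proliferating library B (-0.19, adjusted p = 0.00188) or without all libraries lettered B (-0.16, adjusted p = 0.0137).

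In the Jun family, TNF cells had more Junb and less Jun and Jund RNA than control cells, while Fbxl2 siRNA cells had less Junb. Jun (chr4:95049034-95052222), the main partner of Fos, had 123, 111 and 112 CPM in TNF libraries, 192, 177 and 180 CPM in Fbxl2 siRNA libraries, 178, 182 and 183 CPM in control libraries and 152, 148 and 152 CPM in proliferating libraries. TNF libraries were the lowest and proliferating libraries next, and Fbxl2 siRNA and control libraries overlapped. Jun was 1.57-fold lower in TNF than in control cells (log2 fold change -0.65, SE 0.05, edgeR adjusted p = 2.76e-10). Fbxl2 siRNA differed from control cells by 0.02 on the log2 scale, with a 95% interval of -0.08 to 0.11 (edgeR adjusted p = 0.785). Control cells exceeded proliferating cells by 0.27 on the log2 scale (adjusted p = 3.57e-05).

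Junb (chr8:84974484-84978718), a weaker activator than Jun that can also restrain Jun, had 127, 124 and 121 CPM in TNF libraries and 39.3, 35.9 and 42.1 CPM in Fbxl2 siRNA libraries. Control libraries had 66.2, 67.1 and 66.4 CPM, and proliferating libraries 50.4, 44.0 and 45.5 CPM. No pair of groups overlapped, with TNF highest, then control, proliferating and Fbxl2 siRNA libraries. Junb was 1.86-fold higher with TNF than in control cells (log2 fold change 0.89, SE 0.05, edgeR adjusted p = 1.63e-11) and 1.70-fold lower with Fbxl2 siRNA (-0.77, SE 0.06, adjusted p = 4.3e-10). TNF exceeded Fbxl2 siRNA cells 3.17-fold (log2 fold change 1.66, adjusted p = 8.84e-16) and proliferating cells 2.65-fold (1.41, adjusted p = 4.93e-15). The opposite-strand gene Prdx2 overlaps 7.52% of the Junb exon length, and it averaged 333 CPM in TNF, 256 in Fbxl2 siRNA, 280 in control and 325 in proliferating cells. Like Junb, Prdx2 was called higher in TNF and lower in Fbxl2 siRNA than in control cells (log2 fold changes 0.25 and -0.13). Unlike Junb, it was lower in control than in proliferating cells (-0.21). Reads shared with Prdx2 could enter the Junb counts.

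Jund (chr8:70698949-70700616), which is expressed in most cells and held back by menin, varied less. It had 87.7, 75.8 and 77.7 CPM in TNF libraries, 109, 102 and 110 CPM in Fbxl2 siRNA libraries, 106, 115 and 107 CPM in control libraries and 122, 105 and 103 CPM in proliferating libraries. The TNF libraries were below all others, and the other groups overlapped. Jund was 1.36-fold lower in TNF than in control cells (log2 fold change -0.44, SE 0.07, edgeR adjusted p = 8.63e-06). Fbxl2 siRNA against control cells gave a log2 difference of -0.03 (95% interval -0.16 to 0.10, edgeR adjusted p = 0.704), and control against proliferating cells -0.01 (-0.14 to 0.12, adjusted p = 0.895). The antisense gene Gm11175 overlaps 52.6% of the Jund exon length and the antisense gene Junos overlaps Jun, so reads from the other strand could enter both counts. Gm11175 averaged 2.10 CPM in TNF, 2.91 in Fbxl2 siRNA, 1.97 in control and 2.28 in proliferating cells. It was called in no comparison by edgeR.

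Egr1, a zinc finger factor induced through serum response factor, followed the order of Fos. It had 102, 93.4 and 91.5 CPM in TNF libraries, 88.9, 73.5 and 90.3 CPM in Fbxl2 siRNA libraries, 161, 148 and 144 CPM in control libraries and 75.5, 77.1 and 75.0 CPM in proliferating libraries. Control libraries were above all others, TNF libraries were just above Fbxl2 siRNA libraries, and Fbxl2 siRNA and proliferating libraries overlapped. Egr1 was 1.58-fold lower with TNF (log2 fold change -0.66, SE 0.07, edgeR adjusted p = 5.42e-08) and 1.79-fold lower with Fbxl2 siRNA than in control cells (-0.84, SE 0.07, adjusted p = 1.63e-09), and 1.99-fold higher in control than in proliferating cells (0.99, SE 0.07, adjusted p = 5.13e-11). The log2 difference of 0.19 between TNF and Fbxl2 siRNA cells (adjusted p = 0.0223) lost its call without siRNA B (0.174), TNF A (0.122) or the libraries lettered B (0.119). Fbxl2 siRNA against proliferating cells gave 0.15 (95% interval 0.01 to 0.29, edgeR adjusted p = 0.0598), and was called without siRNA B (0.24, adjusted p = 0.00161) or without the libraries lettered B (0.25, adjusted p = 0.00154).

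Atf3 (chr1:191170296-191218039), a stress-induced member of the ATF family that pairs with Jun proteins, had the widest range over the groups. TNF libraries had 4.29, 4.97 and 3.90 CPM, Fbxl2 siRNA libraries 16.2, 18.1 and 17.6 CPM, control libraries 7.97, 8.53 and 6.76 CPM and proliferating libraries 47.0, 31.8 and 36.8 CPM. No groups overlapped, with proliferating libraries highest and TNF libraries lowest. Atf3 was 1.77-fold lower with TNF (log2 fold change -0.83, SE 0.18, edgeR adjusted p = 0.00117) and 2.23-fold higher with Fbxl2 siRNA than in control cells (1.15, SE 0.14, adjusted p = 8.35e-06). It was 4.97-fold lower in control than in proliferating cells (log2 fold change -2.31, SE 0.13, adjusted p = 1.09e-09), 3.95-fold lower in TNF than in Fbxl2 siRNA cells (-1.98, adjusted p = 9.53e-08) and 8.82-fold lower in TNF than in proliferating cells (-3.14, adjusted p = 1.25e-10).

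Ier3 (chr17:35821684-35822923), an NF-kB-responsive gene known for its part in cell survival, had 26.2, 27.1 and 26.4 CPM in TNF libraries, 14.9, 14.0 and 14.1 CPM in Fbxl2 siRNA libraries, 16.7, 15.2 and 17.4 CPM in control libraries and 22.7, 22.1 and 22.5 CPM in proliferating libraries. No groups overlapped, although siRNA A and control B were close. Ier3 was 1.62-fold higher with TNF than in control cells (log2 fold change 0.69, SE 0.06, edgeR adjusted p = 4.12e-09). The call in Fbxl2 siRNA against control cells (log2 fold change -0.20, SE 0.06, adjusted p = 0.0123) was lost without control C (0.0607) or the libraries lettered C (0.196). Control cells were below proliferating cells by a log2 fold change of -0.45 (adjusted p = 1.19e-06).

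Counted over the comparisons, all 10 genes differed between TNF and control cells: Fosl1, Fosl2, Junb and Ier3 were higher and Fos, Fosb, Jun, Jund, Egr1 and Atf3 were lower. Over all 12736 genes, 31.0% were called higher and 23.6% lower (edgeR, adjusted p under 0.05). The median absolute log2 fold change of the 10 genes was 0.71, against 0.21 over all genes. Between Fbxl2 siRNA and control cells, Fosl1 and Atf3 were higher, Fos, Fosb, Fosl2, Junb, Egr1 and Ier3 were lower, and Jun and Jund were not called, against 34.1% of all genes higher and 29.8% lower. The median absolute change was 0.64 for the 10 genes and 0.27 for all genes. Both comparisons use the same 3 control libraries, so their values are given side by side and their agreement is not tested.

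TNF and Fbxl2 siRNA cells, which share no library, were also compared directly. Fosl2, Junb, Egr1 and Ier3 were higher in TNF cells, Fosl1, Jun, Jund and Atf3 were lower, and Fos and Fosb were not called, with 29.9% of all genes called higher and 30.6% lower. The interval for Fosb was -0.66 to 0.24 around a log2 difference of -0.21 (edgeR adjusted p = 0.41). The log2 differences of the called genes ran from -1.98 for Atf3 to 1.66 for Junb, and the median absolute difference of the 10 genes was 0.70, against 0.24 over all genes.

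Control and proliferating cells differed in both medium and time, and the effects of these cannot be told apart. Fos, Fosb, Fosl2, Jun, Junb and Egr1 were higher in control cells, Fosl1, Atf3 and Ier3 were lower and Jund was not called, against 38.4% of all genes higher and 38.9% lower. The median absolute change was 0.48 for the 10 genes, near the 0.42 of all genes. Against proliferating cells, TNF cells had 5 members higher (Fos, Fosl2, Junb, Egr1 and Ier3) and 4 lower (Fosl1, Jun, Jund and Atf3), with 36.3% of all genes called higher and 36.5% lower. Fosb was not called there (log2 difference -0.29, 95% interval -0.73 to 0.15, edgeR adjusted p = 0.227). Fbxl2 siRNA cells had Fos and Jun higher and Fosl1, Junb, Atf3 and Ier3 lower than proliferating cells, with Fosb, Fosl2, Jund and Egr1 not called, against 30.9% of all genes higher and 31.1% lower. For Fosb the log2 difference was -0.08 (95% interval -0.51 to 0.35, edgeR adjusted p = 0.764) and for Jund -0.04 (-0.17 to 0.10, adjusted p = 0.614). The median absolute change in that last comparison was 0.27 for the 10 genes and 0.26 for all genes.

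**Figure D2:**
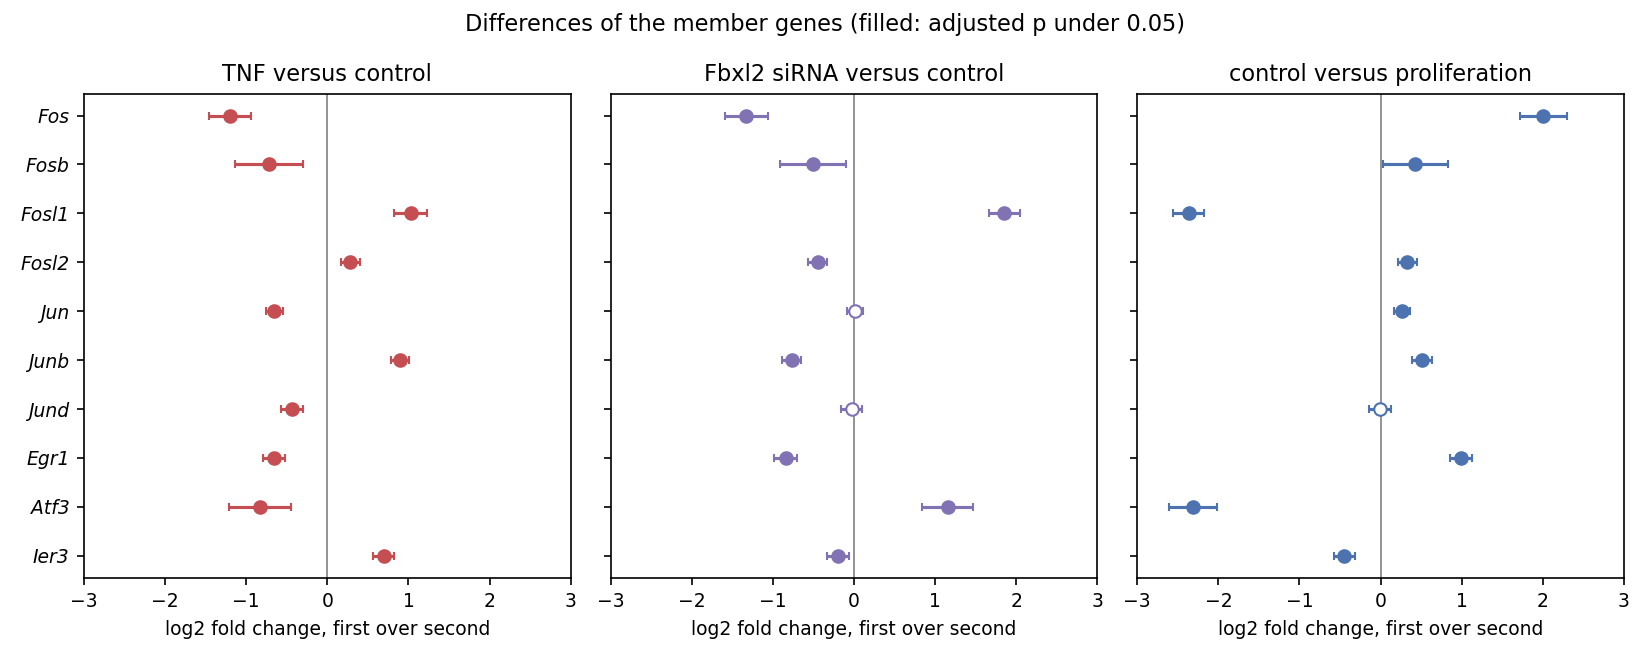
Log2 fold changes of the 10 genes for TNF over control, Fbxl2 siRNA over control and control over proliferating cells, with bars for the 95% interval and filled points where the edgeR adjusted p was under 0.05. Junb lies at 0.89 in TNF and at -0.77 in Fbxl2 siRNA cells against the shared control libraries, and Fosl1 at 1.03 and 1.85.

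Levels of different genes were set side by side as CPM per kb of exon. On this scale the summed level of the 4 Fos family genes was 24.3 ± 0.330 in TNF, 23.4 ± 0.857 in Fbxl2 siRNA, 19.6 ± 0.565 in control and 29.1 ± 1.36 in proliferating cells (SD, n = 3 each). Fosl1 and Fosl2 made up most of that sum in every group. Fosl1 took 29.0% ± 1.05 of it in TNF, 53.3% ± 3.35 in Fbxl2 siRNA, 17.6% ± 1.87 in control and 61.3% ± 3.90 in proliferating cells. Fosl2 took 65.2% ± 0.746 in TNF, 40.9% ± 2.68 in Fbxl2 siRNA, 66.3% ± 0.252 in control and 35.6% ± 4.06 in proliferating cells. Fos, with 14.7% in control cells, took 5.15% in TNF, 4.93% in Fbxl2 siRNA and 2.46% in proliferating cells, and the Fosb share was at most 1.38%.

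The summed level of Jun, Junb and Jund was 138 ± 7.05 CPM per kb in TNF, 139 ± 5.31 in Fbxl2 siRNA, 151 ± 3.79 in control and 133 ± 8.02 in proliferating cells. Within it, the Junb share was 39.0% ± 1.28 in TNF, 12.3% ± 0.645 in Fbxl2 siRNA, 19.1% ± 0.341 in control and 15.2% ± 0.253 in proliferating cells. Junb RNA exceeded Jun RNA per kb in TNF cells only, with a ratio of 1.49 ± 0.0642, against 0.296 ± 0.0237 in Fbxl2 siRNA, 0.510 ± 0.00626 in control and 0.429 ± 0.0268 in proliferating cells. The ratio of the Jun to the Fos family sum was 5.68 ± 0.312 in TNF, 5.93 ± 0.427 in Fbxl2 siRNA, 7.71 ± 0.398 in control and 4.60 ± 0.429 in proliferating cells. These sums and ratios are descriptions over 3 libraries a group, where an exact permutation test cannot give a two-sided p below 0.1.

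**Figure D3:**
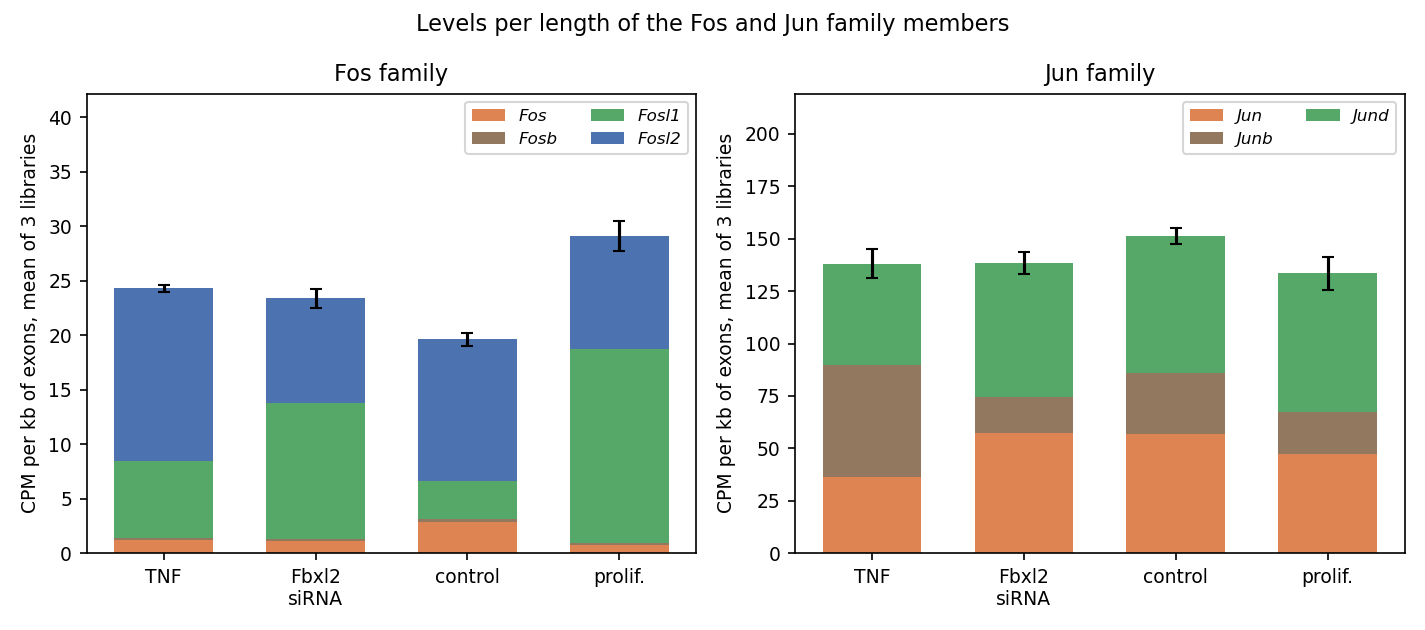
CPM per kb of exon of the Fos family genes and of the Jun family genes in TNF, Fbxl2 siRNA, control and proliferating cells, as stacked means of 3 libraries on a linear axis from 0, with the SD of the sum as bars. The Fos family bar is mostly Fosl1 and Fosl2, and the Junb part of the Jun family bar is largest in TNF cells (39.0%).

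Over the 12 libraries, which share their group structure, log2 CPM of Fosl2 and Junb had a Pearson r of 0.974, Fos and Egr1 of 0.955, and Fos and Fosl1 of -0.947, given as descriptions. By the same measure, the gene outside the 10 that was nearest to Junb was Pkdcc (r = 0.995), with mean CPM of 8.60 in TNF, 3.24 in Fbxl2 siRNA, 5.43 in control and 3.89 in proliferating cells. The nearest to Fos was Cntf (r = 0.985), with 2.10 CPM in TNF, 2.12 in Fbxl2 siRNA, 5.64 in control and 1.29 in proliferating cells. For the others the nearest genes were Trit1 for Fosb (0.876), Polk for Fosl1 (0.997), Phlpp1 for Fosl2 (0.995), Amot for Jun (0.987), Ttbk2 for Jund (0.952), Ankrd1 for Egr1 (0.995), Rps6ka2 for Atf3 (0.989) and Smad7 for Ier3 (0.980). With 12 libraries in 4 groups and 12726 candidate genes, a high r is easily reached.

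Other genes of the same pathway were taken from lists. Of 36 further immediate early genes, 35 were tested. Against control cells, 13 were higher and 15 lower in TNF cells (median log2 fold change -0.06, against 0.03 over all genes), and 11 were higher and 15 lower in Fbxl2 siRNA cells (median -0.06, against 0.03). Myc, the growth regulator, stood at 40.0 CPM in TNF, 30.4 in Fbxl2 siRNA and 20.3 in control cells, with log2 fold changes over control of 0.98 and 0.58 (edgeR adjusted p = 3.73e-10 and 9.73e-07). Nab1, a corepressor of Egr proteins, was higher in TNF than in control cells by 0.93 on the log2 scale (adjusted p = 6.55e-13). Klf2, a Krüppel-like factor, fell 2.65-fold with TNF (log2 fold change -1.40, adjusted p = 1.32e-14), and was at 0.01 with Fbxl2 siRNA (adjusted p = 0.816). Egr2, a relative of Egr1, and Gadd45b, a stress gene, were 3.03-fold and 3.002-fold lower in Fbxl2 siRNA than in control cells (log2 fold changes -1.60 and -1.59, adjusted p = 3.29e-11 and 3.12e-13), and 4.05-fold and 4.56-fold higher in TNF than in Fbxl2 siRNA cells. Egr3 and Nr4a1, chosen after their values were seen, had log2 fold changes over control of -1.33 and -1.17 with TNF and -1.32 and -1.34 with Fbxl2 siRNA. Nr4a3 was called lower with TNF on few counts (log2 fold change -1.70), and the call was lost without TNF library B (adjusted p = 0.0768) or the libraries lettered B (0.0603). Over all genes 31.0% were higher and 23.6% lower with TNF, and 34.1% higher and 29.8% lower with Fbxl2 siRNA. Between control and proliferating cells 15 were higher and 15 lower, against 38.4% and 38.9% of all genes, led by Zfp36l1 (log2 fold change 2.22) and Plk3 (-1.29).

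**Figure D4:**
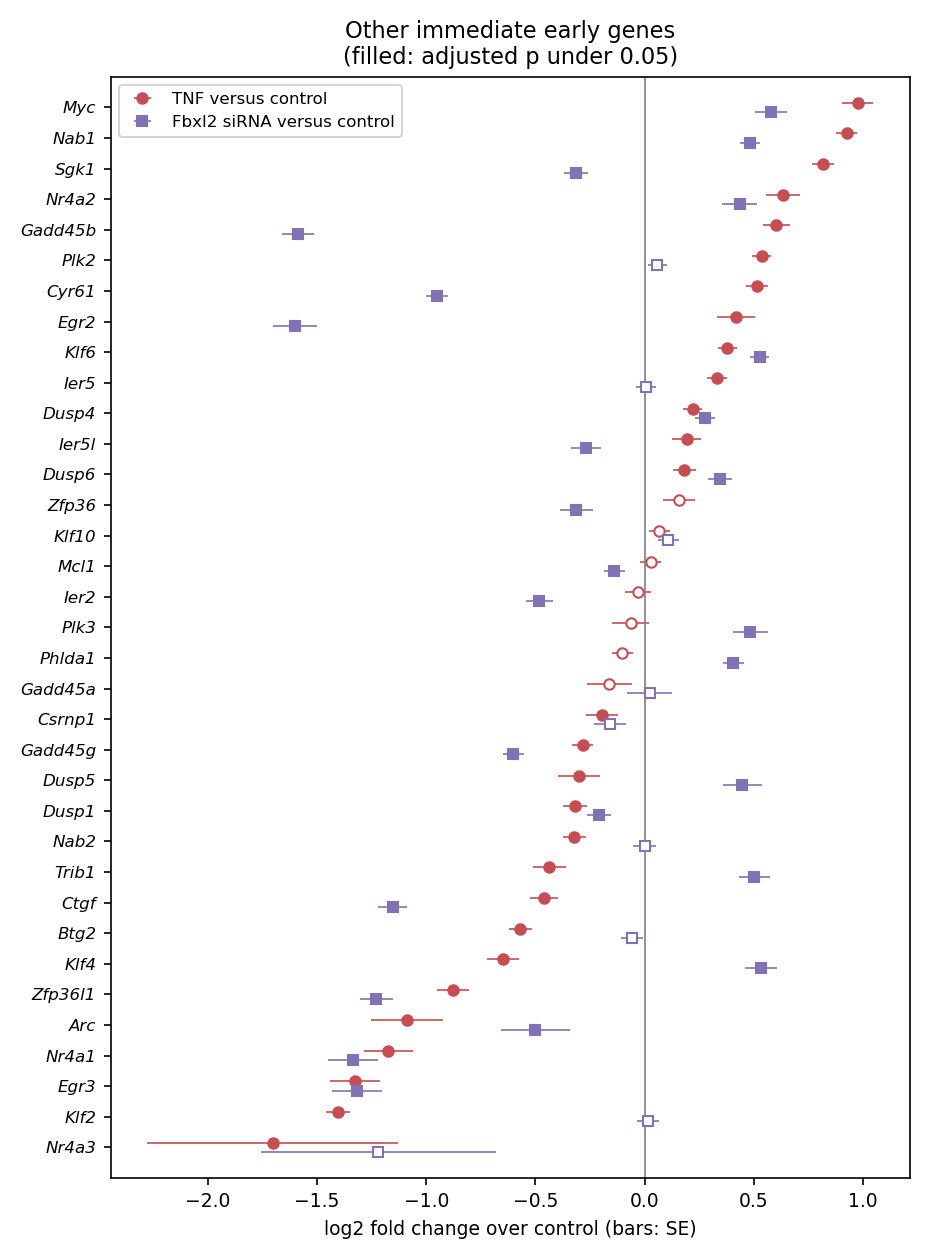
Log2 fold changes with SE of 35 further immediate early genes in TNF and Fbxl2 siRNA cells, each against the same control libraries, ordered by the TNF value. Filled points had an edgeR adjusted p under 0.05. Myc is at the top with TNF, and Egr2 and Gadd45b have the lowest Fbxl2 siRNA values.

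Of 16 other AP-1 family and small Maf genes, 13 were tested, and 5 were higher and 5 lower in TNF than in control cells, with 4 higher and 6 lower in Fbxl2 siRNA cells. Over all genes 31.0% were higher and 23.6% lower with TNF, and 34.1% higher and 29.8% lower with Fbxl2 siRNA. The median log2 fold change of the list was 0.07 with TNF and -0.16 with Fbxl2 siRNA, against 0.03 over all genes in each comparison. Batf2, an AP-1 partner known for its induction by interferon, had 42 counts over the TNF libraries, 14 over the Fbxl2 siRNA libraries and 1 over the control libraries. These counts gave ratios to control of 43.6 (95% counting interval 7.40 to 1761) and 14.99 (2.28 to 634). Atf5, a stress-response factor, averaged 155 CPM in TNF, 158 in Fbxl2 siRNA and 78.5 in control cells, with log2 fold changes over control of 0.98 and 1.00 (edgeR adjusted p = 5.77e-06 and 3.82e-06). Maf averaged 30.6, 25.8 and 60.5 CPM in TNF, Fbxl2 siRNA and control cells, with log2 fold changes of -0.98 and -1.23 (adjusted p = 5.12e-12 and 3.02e-13). Control against proliferating cells had 5 higher and 4 lower, against 38.4% and 38.9% of all genes, with Maf 3.94-fold higher and Atf4 2.45-fold lower.

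Of 26 genes of serum response factor, its cofactors and the MAP kinase cascades, 25 were tested. TNF cells had 11 higher and 3 lower than control cells, with Map3k5 (ASK1) 2.10-fold and Mapk11 (p38 beta) 1.74-fold higher (edgeR adjusted p = 0.000636 and 2.09e-08). The count of 11 fell to 7 with no filter on low counts, without control A or C, and without the libraries lettered A or C, and the count of 3 was 5 with no filter or without proliferating library B and 7 with only the 2 groups in the fit. In Fbxl2 siRNA cells 7 were higher and 8 lower than in control cells. The median log2 fold change was 0.11 with TNF and 0.01 with Fbxl2 siRNA, against 0.03 over all genes in each comparison, of which 31.0% were higher and 23.6% lower with TNF and 34.1% higher and 29.8% lower with Fbxl2 siRNA. Srf was lower in both, with log2 fold changes of -0.22 with TNF and -0.42 with Fbxl2 siRNA (adjusted p = 0.00215 and 1.26e-06). Control against proliferating cells had 8 higher, Srf among them (1.55-fold), and 12 lower, against 38.4% and 38.9% of all genes.

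Among 20 reported AP-1 target genes, all tested, 13 were higher and 2 lower in TNF than in control cells, with a median log2 fold change of 0.44 against 0.03 over all genes, of which 31.0% were higher and 23.6% lower. The chemokine gene Ccl2 averaged 990 CPM in TNF and 9.05 CPM in control cells (log2 fold change 6.78, SE 0.07, edgeR adjusted p = 3.89e-24), and the gelatinase gene Mmp9 86.5 and 1.06 CPM in TNF and control cells (6.32, SE 0.13, adjusted p = 1.07e-18). The 2 lower genes were Plau, which encodes urokinase (log2 fold change -0.76), and the hyaluronan receptor gene Cd44 (-0.49). With Fbxl2 siRNA 10 were higher and 6 lower than in control cells, with a median of 0.53 against 0.03 over all genes, of which 34.1% were higher and 29.8% lower. The list was led by the growth factor gene Areg, which was 6.30-fold higher (2.66, adjusted p = 9.17e-12), and the collagenase gene Mmp13, which was 2.85-fold higher (1.51, adjusted p = 7.77e-08). Plau was 2.20-fold and Cd44 1.61-fold higher with Fbxl2 siRNA, opposite in sign to their TNF values. Between control and proliferating cells 5 were higher and 11 lower, against 38.4% and 38.9% of all genes, with Areg 9.99-fold lower. Many of these genes also answer to NF-kB and other factors, and AP-1 binding was not measured.

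Of 10 heat shock genes, listed as a sign of stress in the cultures, 4 were higher and 2 lower in TNF than in control cells, or 1 lower without TNF A, control C or the libraries lettered C. The median log2 fold change was 0.05, against 0.03 over all genes, of which 31.0% were higher and 23.6% lower. In Fbxl2 siRNA against control cells 6 were higher and 0 lower, with a median of 0.27 against 0.03 over all genes, of which 34.1% were higher and 29.8% lower. In control against proliferating cells 0 were higher and 8 lower, with a median of -0.35, and 38.4% of all genes were higher and 38.9% lower. The Atf3 level was likewise higher in Fbxl2 siRNA than in control cells and lower in control than in proliferating cells. With TNF, Atf3 was lower than in control cells (log2 fold change -0.83), where 4 heat shock genes were higher and 2 lower. The part of heat shock or stress in the Atf3 values was not tested.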

How the data were processed

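The authors deposited whole-number read counts per gene symbol for 12 libraries, and no normalization had been applied to them. The tools named are CASAVA and DESeq2, with the mm10 build, per the submitters' processing notes. The sources used here name no aligner, counter or strand setting. The authors' own comparison tables were not used. Counts were analysed with edgeR 4.0.16 in R 4.3.3: genes were kept by filterByExpr (12736 of 21232, with 4354 lacking any count), scaled by TMM, and fitted by the robust quasi-likelihood model with 4 group means over 12 libraries (8 residual degrees of freedom). Adjusted p-values are Benjamini-Hochberg over all tested genes, called under 0.05. The SE is the absolute log2 fold change over the square root of F. CPM per kb used GENCODE M21 exon lengths, and promoter windows came from RefSeq. Library totals were 26416978 to 32917763 counts, and intervals on counts cover counting error only. Scripts were tested on simulated data. Alternatives were RLE size factors, DESeq2 1.42.0, no filter, a replicate block, only the 2 groups compared, and leaving out each library or each letter.

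The 10 members, the gene lists and the tests were chosen with earlier results of these data known. Named from each list were the 2 called genes with the highest and the 2 with the lowest log2 fold change in the comparisons with control and of control with proliferation, and, for each member, the gene with the highest correlation over the 12 libraries; those that add little are given only in the counts. Values of some named genes in other comparisons, such as Plau, Cd44 and Srf with Fbxl2 siRNA, are given outside this rule. Egr3 and Nr4a1 are outside it as well. Replicates of a group differed by more than sampling noise (chi-square per degree of freedom 1.52 to 18.1), so none was merged.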

Additional observations from a re-analysis of the deposited data

How the results depend on the processing

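Each result was recomputed under 20 alternatives. Between TNF and control cells the counts of members called higher (4) and lower (6) did not move. Between Fbxl2 siRNA and control cells 4 to 6 members were lower, against 6, and 2 higher in each alternative. Values that changed sign belonged to genes that were not called. For Jun in Fbxl2 siRNA against control cells, the log2 fold change was -0.014 with RLE size factors, -0.012 with DESeq2, -0.016 with no filter, -0.0039 with only the 2 groups, -0.030 without the libraries lettered A, and -0.018 to 0.041 with each library left out. For Jund in the same comparison it was 0.043 without the libraries lettered B and -0.054 to 0.0044 with each library left out. For Jund in control against proliferating cells it was 0.0061 with RLE, 0.0023 with DESeq2, 0.019 with no filter, 0.095 without letter A and -0.052 to 0.073 with each library left out. For Fosb it was 0.060 in TNF against Fbxl2 siRNA cells without letter A. In Fbxl2 siRNA against proliferating cells, Fosb was at 0.0098 without letter B and -0.27 to 0.055 with each library left out, and Jund at 0.032 without letter A and -0.087 to 0.037. The cause of these changes was not tested. The alternatives moved the median log2 fold change of all genes by -0.032 to 0.029 in any comparison. The letters did not clearly pair the libraries. Correlations of same-letter deviations ran from -0.096 to 0.18, with 3 of 18 over 0.1, and those of different letters from -0.16 to 0.13. In 12 of 36 cases a library was nearest, within another group, to the library of its own letter. With a replicate block, Fosb in control against proliferating cells lost its call (log2 fold change 0.43, edgeR adjusted p = 0.0594) and Egr1 in Fbxl2 siRNA against proliferating cells gained one (0.15, adjusted p = 0.0377). Fosb had the lowest counts of the members, and whether depth bears on its calls was not tested.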
